A study of Bos taurus with 24 samples.

Results

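The response of the Holstein (HOLS) mammary gland to feed restriction was described from small RNA libraries of 5 cows, each biopsied on day 0, before restriction (CONT), and on day 6, at its end (REST). The members are the 10 HOLS libraries with deposited count columns, of 22 such libraries in the series, and the 2 libraries of a cow were compared with each other. The other 12 libraries come from 6 Montbéliarde (MONT) cows biopsied at the same periods. All cows were multiparous and in midlactation, restriction lasted 6 days, and the labels give it as 60% of the net energy of lactation. The study's methods give a lower share. Each cow was its own control and none was left unrestricted over the same days, and the biopsies of a cow came from alternate sides of the rear udder. Restriction, time and side therefore cannot be told apart.

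A mature miRNA guides a silencing complex to messenger RNAs that pair with its seed, the bases near its 5′ end, and lowers the stability or translation of these messengers. Each hairpin precursor gives a 5p and a 3p arm, one of which is usually the more abundant. In the lactating gland some miRNAs are known mainly from epithelial cells (the miR-200 family), others from smooth muscle and stroma (miR-143, miR-145), vessels (miR-126), white blood cells (miR-142, miR-155) or red blood cells (miR-451). A biopsy holds all of these, so fewer cells of a type and less RNA per cell cannot be told apart.

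Of 796 miRNAs listed, 754 had a count in at least 1 HOLS library and those that passed the filter on low counts, which together held 99.99% of all counts, were tested. Library totals lay between 7431936 and 16808976 counts before restriction and between 11108829 and 18149037 after it, and were higher in REST in 4 of 5 cows. Epithelial markers were abundant in every library: 9 of them summed to between 489866 and 611397 normalized counts in CONT libraries and to between 345368 and 739890.3 in REST libraries, and none of the 9 was at 0 throughout. Counts were compared after division by a size factor, which sets libraries of different depth on one scale (normalized counts).

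With the cow as a block, 61 of the miRNAs tested (16.3%) passed an adjusted p of 0.05 (edgeR quasi-likelihood F test, Benjamini-Hochberg) and 313 did not. Of the 61, 30 were higher in REST (8.02%) and 31 were lower (8.29%). The 2 directions lay at different levels of abundance. The 30 that rose had a median mean of 6574 normalized counts and held 26.5% of all counts, whereas the 31 that fell had a median of 105 and held 0.639%. Among the 150 miRNAs with a mean under 100 normalized counts, 3 rose and 14 fell, and among the 57 with a mean of at least 10000, 10 rose and 2 fell. Called or not, the 150 had a median log2 fold change of -0.02 and the 57 one of 0.10. The median standard error was 0.23 among the 150 and 0.10 among the 57, so a scarce miRNA needed a larger change to pass. The rises were small, with log2 fold changes from 0.26 to 0.78, that is 1.20-fold to 1.71-fold. The falls reached further, from -0.28 to -1.99, and 7 of them were larger than 1 on the log2 scale.

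**Figure D1:**
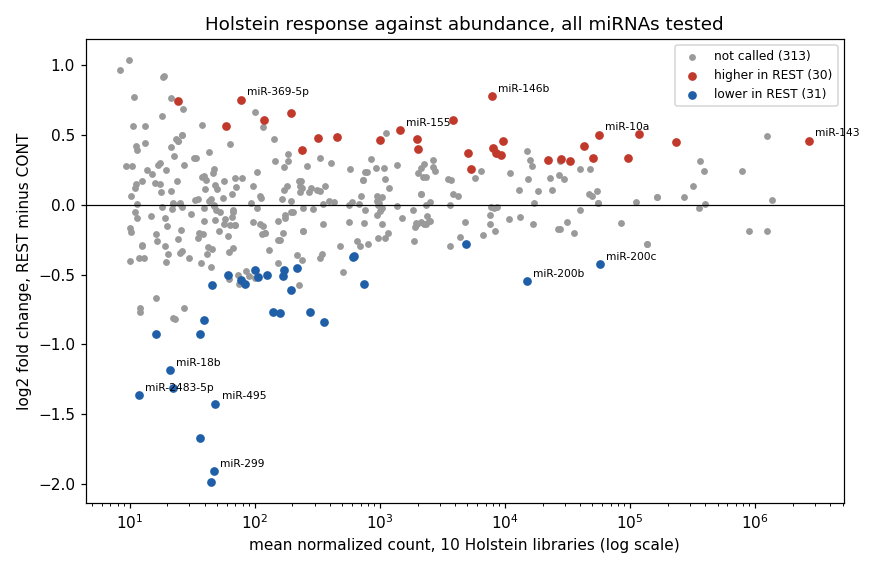
Fitted log2 fold change of REST against CONT (vertical axis) against the mean normalized count over 10 HOLS libraries (horizontal axis, log scale) for each miRNA tested. The 30 red points (higher in REST) reach 0.78 and spread to the most abundant miRNA, miR-143, while the 31 blue points (lower in REST) reach -1.99 and have a median of 105 normalized counts.

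Most calls had the same sign in every cow: 24 of the 30 rose in 5 of 5 cows and 27 of the 31 fell in 5 of 5 cows, against 109 of all tested miRNAs (29.1%) with 1 sign in all 5 cows. Separation of the 5 CONT from the 5 REST libraries was rarer among the rises. All REST values lay above all CONT values for 3 of the 30 miRNAs that rose (miR-222, miR-25 and miR-11977) and below them for 19 of the 31 that fell, against 6 (1.6%) and 21 (5.61%) of all tested, together 27 (7.22%). The spread that the model left unexplained, as edgeR's biological coefficient of variation, was 0.15 with the block and 0.23 without it. Without the block 9 miRNAs (2.41%) passed, all lower in REST. Of the 61, 59 moved in the called direction in cow 1165, 59 in cow 8200, 58 in cow 9195, 61 in cow 1155 and 58 in cow 2182, with a median change in that direction from 0.37 in cow 9195 to 0.71 in cow 1155 on the log2 scale. The direction of the whole set depended on the scaling. By library size only, the median log2 change of all tested miRNAs moved from 0.01 to -0.16, and 6 miRNAs rose and 62 fell. All 31 falls and 6 of the 30 rises kept their calls there, and none of the 61 changed sign. The 6 rises were miR-146b, miR-874, miR-204, miR-26b, miR-10a and miR-143.

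**Figure D2:**
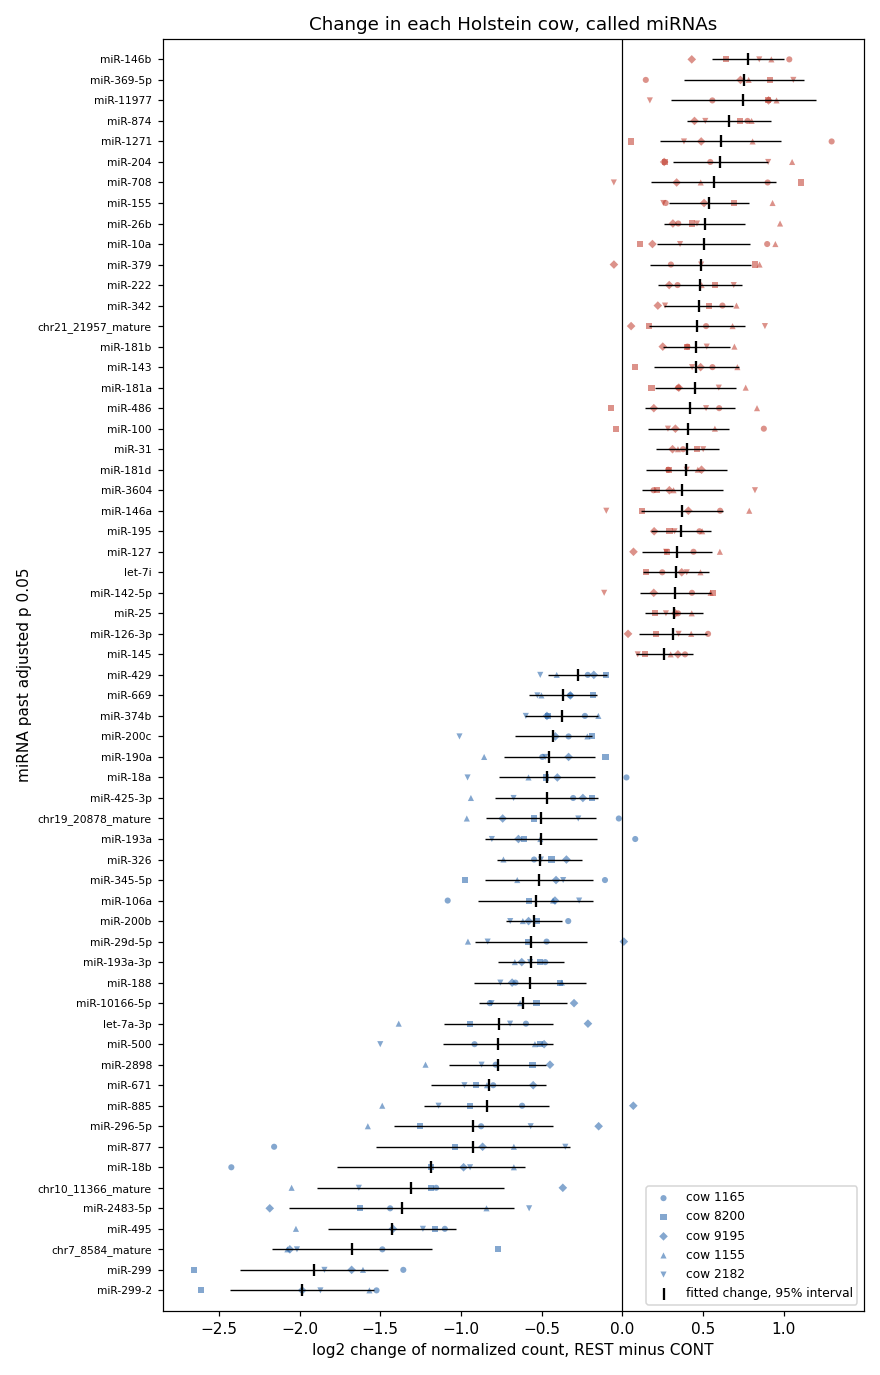
Log2 change of the normalized count from CONT to REST (horizontal axis) in each of 5 HOLS cows (symbols) for the 61 miRNAs called, with the fitted change and its 95% interval (black). Red miRNAs rose and blue ones fell, and in 51 of the 61 rows all 5 symbols lie on 1 side of 0.

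Several miRNAs known from immune cells rose. Of 7 leukocyte markers tested, 4 rose (miR-155, miR-342, miR-146a and miR-142-5p) and 0 fell, where 8.02% of all tested miRNAs rose and 8.29% fell. All 7 values lay above 0, with a median log2 fold change of 0.33, against 0.01 over all tested miRNAs. By library size only none of these 4 calls remained, with adjusted p from 0.0659 (miR-155) to 0.342 (miR-142-5p, edgeR). Those of miR-146a and miR-142-5p also ended by upper quartile scaling, with a mean count of at least 10 and with library sizes without miR-143. miR-146b, which like miR-146a dampens Toll-like receptor signalling and is not among the 7 markers, had the highest log2 fold change of all calls. Its normalized counts in cows 1165, 8200, 9195, 1155 and 2182, in this order, were 2991, 6057, 8593, 8338 and 3299.9 in CONT and 6123, 9433, 11570.1, 15800.2 and 5938 in REST. All 5 cows rose although their baselines spread so widely that the periods overlapped, and the fit gave a log2 fold change of 0.78 ± 0.10 (SE), adjusted p = 0.000657. Leaving out any single cow kept this call, with an adjusted p of at most 0.00783.

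miR-155 is induced in activated lymphocytes and macrophages. Its normalized counts were 1241, 921.7, 1395, 1229 and 1104 in CONT and 1494, 1489, 1980.1, 2342 and 1316 in REST in the same order of cows, with a log2 fold change of 0.54 ± 0.11 (SE), adjusted p = 0.011. All 5 cows rose, cow 1155 the most, and leaving out a cow ended the call in 1 fit (adjusted p = 0.0604 without cow 9195). miR-342, abundant in lymphocytes, went from 1623, 1761, 2089, 1546 and 1255 in CONT to 2493, 2551, 2431, 2523 and 1507 in REST, with a log2 fold change of 0.47 ± 0.10 (SE), adjusted p = 0.00983. In REST 4 cows lay close together and cow 2182 lay below them, and leaving out a cow ended the call in 1 fit (adjusted p = 0.0524 without cow 1165).

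miR-146a and miR-142-5p rose in 4 of 5 cows each and were slightly lower in REST in cow 2182. Their log2 fold changes were 0.37 ± 0.12 for miR-146a and 0.33 ± 0.10 for miR-142-5p (SE), with adjusted p of 0.0491 and 0.0476, and leaving out a cow ended the calls of miR-146a (adjusted p of up to 0.204 without cow 1165, 9195 or 1155) and miR-142-5p (adjusted p of up to 0.171 without cow 1165, 8200, 9195 or 1155). The other 3 markers did not pass: miR-142-3p, from the hairpin of miR-142-5p, had 0.12, miR-150 of resting lymphocytes 0.19 and miR-223 of neutrophils 0.04. Summed over the 7 markers, CONT libraries had 27537 to 40499 normalized counts and REST libraries 26319 to 59915, and the sum was higher in REST in 4 of 5 cows. A share of blood or immune cells that differed between biopsies was not tested as a cause of these values.

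Among smooth muscle, stroma and vessel markers, 3 of 9 rose and 0 fell, where 8.02% of all tested miRNAs rose, and 2 of the 3 calls ended whichever cow was left out. miR-143, which with miR-145 is transcribed from a smooth muscle and fibroblast locus, was the most abundant miRNA of the gland. Its normalized counts were 1857008, 2844285, 2309506, 2169547 and 2283189 in CONT and 2732778, 3004468, 3229856, 3553435 and 3078526 in REST, with a log2 fold change of 0.46 ± 0.12 (SE), adjusted p = 0.0287. All 5 cows rose, with the smallest change in cow 8200, whose CONT value was the highest. As a share of all counts it held 18.7% ± 1.95 in CONT against 22.8% ± 2.59 in REST (SD, n = 5), a mean difference of 4.10 ± 1.79 percentage points seen in 5 of 5 cows. A two-sided exact paired sign-flip permutation test gave p = 0.063, the smallest that 5 cows allow. Leaving out a cow ended the call of miR-143 in 4 of 5 fits (adjusted p of up to 0.125 without cow 1165, 9195, 1155 or 2182).

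miR-145 rose less (a log2 fold change of 0.26 ± 0.08 (SE), adjusted p = 0.0491), and its call ended in each fit that left out a cow (adjusted p of up to 0.193 without any 1 of the 5 cows) and in 8 of the 10 other settings tried, DESeq2's size factors and scaling by library size among them. Of 7 smooth muscle and stroma markers, these 2 rose and the other 5 had values above 0, with a median of 0.31. miR-126-3p, from an intron of an endothelial gene, went from 31111, 27045, 32634, 28724 and 28471 to 44926, 31255, 33424, 38583 and 36228 normalized counts, with a log2 fold change of 0.31 ± 0.10 (SE), adjusted p = 0.0476. It was higher in REST in 5 of 5 cows and its 5p partner had the same log2 value of 0.31, adjusted p = 0.0572. Its call too ended in each fit that left out a cow (adjusted p of up to 0.175 without any 1 of the 5 cows). The summed counts of the smooth muscle and stroma markers, which are mostly miR-143, and of the 2 endothelium markers were higher in REST in 5 of 5 cows. The first sum ranged from 1871571 to 2863520 normalized counts in CONT and from 2750003 to 3575493 in REST, and the second from 314175 to 410281 and from 369588 to 536252. The part of cell makeup in these values was not tested.

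miR-486, known from red blood cells and muscle, rose in 4 of 5 cows, with a log2 fold change of 0.42 ± 0.13 (SE), adjusted p = 0.0476, and adjusted p of up to 0.17 without cow 1165, 9195, 1155 or 2182. The other red blood cell markers had negative values, -0.14 for miR-451 and -0.13 for miR-144, and did not pass. Of the skeletal muscle markers 2 of 4 could be tested and 0 passed (edgeR, 0 at an unadjusted p under 0.05).

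Some abundant miRNAs of wide expression also rose. miR-10a, encoded in a HOX gene cluster, had 46973, 53329.8, 59104, 38069 and 35027 normalized counts in CONT and 87430.2, 57544, 67219, 73393 and 44854 in REST, with a log2 fold change of 0.50 ± 0.13 (SE), adjusted p = 0.0282. All 5 cows rose, by most in cows 1165 and 1155. Its near relative miR-10b had a log2 fold change of 0.49, was higher in REST in 4 of 5 cows and missed the threshold (adjusted p = 0.0512). miR-26b, processed from an intron of a phosphatase gene, had 96184, 83805, 121276, 85659 and 98986 in CONT and 122201, 112984, 150588, 168500.4 and 136297 in REST, with a log2 fold change of 0.51 ± 0.12 (SE), adjusted p = 0.0141. Its relative miR-26a had 0.24 and did not pass (adjusted p = 0.15). Leaving out a cow ended the calls of miR-10a (adjusted p of up to 0.127 without cow 1165, 9195, 1155 or 2182) and miR-26b (adjusted p of up to 0.0589 without cow 9195 or 2182).

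Of the 4 members of the miR-181 family, which is best known from lymphocyte development, 3 rose, where 8.02% of all tested miRNAs rose. The fourth had 0.27, adjusted p = 0.0789. miR-181b had 7145, 7659.8, 9903, 7068 and 9242 normalized counts in CONT and 9444, 10122, 11774, 11431 and 13270.3 in REST, and a log2 fold change of 0.46 ± 0.09 (SE), adjusted p = 0.00983. Every cow rose, and the call remained in each of the 5 fits without a cow. The values were 0.45 ± 0.11 for miR-181a and 0.39 ± 0.11 for miR-181d (SE). Leaving out a cow ended the calls of miR-181a (adjusted p of up to 0.0875 without cow 1165, 9195, 1155 or 2182) and miR-181d (adjusted p of up to 0.138 without any 1 of the 5 cows). By library size only none of the 3 passed, and miR-181a and miR-181b both had an adjusted p of 0.0671.

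Other rises of abundant miRNAs came from different families. miR-204, an epithelial miRNA from an ion channel gene, rose in 5 of 5 cows, from 3497, 3539, 3649, 2998 and 1713 to 5099, 4250.4, 4365, 6212 and 3202 normalized counts, with a log2 fold change of 0.61 ± 0.13 (SE), adjusted p = 0.0139, and adjusted p = 0.0562 without cow 2182. miR-31, a miRNA of skin and mammary epithelium, rose in 5 of 5 cows from 1775, 1282, 2576, 1886 and 1296 to 2302, 1763, 3193, 2393 and 1833, with a log2 fold change of 0.40 ± 0.09 (SE), adjusted p = 0.0139. The 5 cows changed by 0.31 to 0.50 on the log2 scale, and the call remained without any single cow, with an adjusted p of at most 0.0467. miR-195 of the miR-15/16 family, whose targets include cell cycle genes, had 0.36, and the other 5 members tested also lay above 0 without passing. miR-25, a member of the miR-17-92 paralogues, had 0.32, let-7i of the let-7 family 0.33 and miR-100, a repressor of mTOR, 0.41. Calls of the 4 ended in 3 or 4 of the fits without a cow, with adjusted p of up to 0.175 for miR-100 without cow 1165.

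Scarcer miRNAs that rose included miR-222, which represses a cell cycle inhibitor. Its 5 REST values, 355.02, 362.4, 352.1, 409.8 and 373.3 normalized counts, all lay above its CONT values, 280.04, 242.8, 287.9, 291.5 and 231.2, with a log2 fold change of 0.48 ± 0.12 (SE), adjusted p = 0.0216, and adjusted p of up to 0.0661 without cow 1155 or 2182. miR-874 had 130.3, 142.4, 207.7, 182.1 and 87.9 in CONT and 223.5, 236.6, 283.3, 317.7 and 125.9 in REST, with a log2 fold change of 0.66 ± 0.12 (SE), adjusted p = 0.00595. All cows rose, by 0.45 to 0.80 on the log2 scale, and the call remained in each fit without a cow. The remaining scarce rises were miR-1271, which shares its seed with miR-96 (0.61), miR-11977 (0.75), miR-708 (0.56) and the predicted miRNA chr21_21957 (0.46). The calls of miR-11977 and miR-708 were absent with DESeq2 and the block (adjusted p = 0.118 and 0.0978), and all 4 ended in at least 4 of the fits without a cow, with adjusted p of up to 0.147. miR-3604 rose too (0.37, adjusted p = 0.0491), but its counts follow those of miR-199a-3p, a stromal miRNA, within 286 counts in every library, and miR-199a-3p itself missed the threshold (0.36, adjusted p = 0.051). Both are read as 1 measurement near the threshold.

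**Figure D3:**
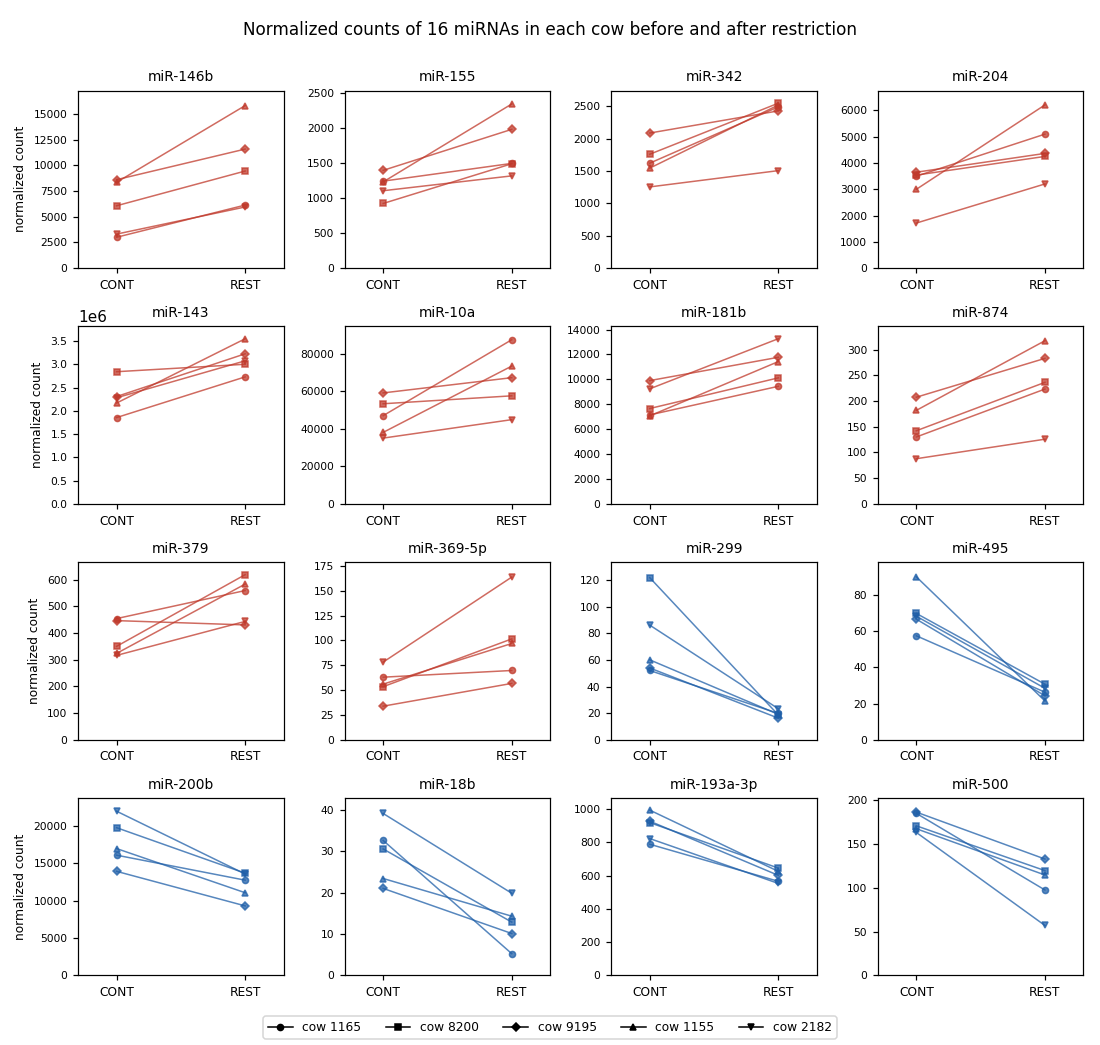
Normalized counts of 16 miRNAs in CONT and REST (vertical axes start at 0, 1 panel per miRNA), with a line for each of 5 HOLS cows. The red panels rose and the blue panels fell, and only miR-379 has a line against the direction of its panel, in cow 9195.

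The imprinted DLK1-DIO3 cluster, a large group of miRNAs expressed from the maternal chromosome, held the deepest falls. Of 56 listed members 35 were tested, of which 3 rose (miR-369-5p, miR-379 and miR-127) and 3 fell (miR-299, miR-299-2 and miR-495), close to the 8.02% that rose and the 8.29% that fell among all tested miRNAs. The median log2 fold change was 0.04 and turned negative by library size only, by upper quartile scaling and without cow 2182. miR-299 had 52.1, 122.05, 53.99, 60.1 and 86.3 normalized counts in CONT and 19.7, 18.6, 16.2, 19.1 and 23.3 in REST. Its CONT values spread and its REST values were nearly equal, all REST values lay below all CONT values, and the fit gave a log2 fold change of -1.91 ± 0.21 (SE), adjusted p = 0.000191. The entry miR-299-2 follows miR-299 within 6 counts in each library, so both are 1 measurement and the 3 falls are 2 measurements. miR-495 went from 57.5, 69.9, 66.7, 90.2 and 68.4 to 26.3, 30.7, 24.3, 21.4 and 28.5, with a log2 fold change of -1.43 ± 0.18 (SE), adjusted p = 0.000606. These periods did not overlap either.

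In the opposite direction, miR-369-5p rose from 62.95, 53.4, 33.7, 55.95 and 78.1 to 69.7, 101.5, 56.7, 96.9 and 163.8 normalized counts, with a log2 fold change of 0.75 ± 0.17 (SE), adjusted p = 0.0141. It rose in all cows, by least in cow 1165 and by most in cow 2182, and leaving out a cow ended the call in 2 fits (adjusted p of up to 0.0594 without cow 9195 or 2182). miR-379 rose from 453.7, 349.6, 446.1, 323.2 and 315.8 to 558.8, 618.3, 430.02, 582.99 and 443.1, with a log2 fold change of 0.49 ± 0.14 (SE), adjusted p = 0.0438. Here cow 9195 was the exception, with a slightly lower value in REST, and leaving out a cow ended the call in 4 fits (adjusted p of up to 0.126 without cow 1165, 8200, 1155 or 2182). miR-127, an abundant miRNA antisense to a retrotransposon-derived gene, had a mean of 85302 ± 12501 normalized counts before restriction and 106976 ± 12011 after it (SD, n = 5), with a log2 fold change of 0.34 (adjusted p of up to 0.153 without any 1 of the 5 cows).

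The genes of miR-299, miR-495, miR-379 and miR-369 lie in a single run of neighbours in the RefSeq bovine annotation, with gaps of at most 10000 bases, of which 26 mature miRNAs were tested. Their median was 0.03, with 15 of 26 above 0. A ratio of 2 miRNAs within a library does not depend on the scaling, and the ratio of miR-379 to miR-299 was higher in REST in 5 of 5 cows by 2.31 ± 0.75 on the log2 scale (SD), that of miR-379 to miR-495 by 1.87 ± 0.61. The pairs set a miRNA that rose against 2 that fell and were chosen after their values were seen, so these ratios are a description with no test. The other arm of the miR-369 hairpin, miR-369-3p, had 0.12 (adjusted p = 0.557). Members that did not pass included miR-410 (0.06) and miR-543 (-0.35).

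Among epithelial miRNAs, the miR-200 family, which holds cells in the epithelial state by repressing ZEB factors, held several of the abundant falls. Of 5 family members tested 3 fell and 0 rose, where 8.29% of all tested miRNAs fell and 8.02% rose. The median log2 fold change of the 5 was -0.28. miR-200b had 16064, 19735, 13905, 16948 and 21938 normalized counts in CONT and 12727, 13659.6, 9291, 11049 and 13549 in REST, with a log2 fold change of -0.55 ± 0.08 (SE), adjusted p = 0.00119. All REST values lay below all CONT values, and the call remained without any single cow. miR-200c had 65747, 65499, 58322, 62539 and 74974 in CONT and 52167, 57483, 43723, 53793 and 37239 in REST, with a log2 fold change of -0.43 ± 0.11 (SE), adjusted p = 0.0257. The groups again did not overlap, cow 2182 fell the most, and leaving out a cow ended the call in 3 fits (adjusted p of up to 0.0748 without cow 1165, 9195 or 2182). miR-429, from the hairpin cluster of miR-200b, had a log2 fold change of -0.28 ± 0.08 (SE), adjusted p = 0.0438, which leaving out a cow ended in 3 fits (adjusted p of up to 0.122 without cow 1165, 1155 or 2182).

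The other 2 members did not pass. miR-200a, of the same cluster as miR-200b, had -0.14 (-0.33 to 0.06 as the 95% interval), and miR-141, clustered with miR-200c in mammals and by far the most abundant of the 5, had 0.01 (-0.28 to 0.29) and changed sign with the scaling. Of the 9 epithelium markers, the same 3 fell and 0 rose, where 8.29% of all tested miRNAs fell and 8.02% rose. The 9 markers had a median of -0.12, and miR-205 had 0.10. Their summed count, mostly miR-141, was higher in REST in 3 of 5 cows, with changes from -0.56 to 0.30 on the log2 scale. The part of the higher stromal and leukocyte sums in these values was not tested.

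Some scarce miRNAs of proliferation clusters fell. Of 15 tested members of miR-17-92 and its paralogues, 3 fell and 1 rose (miR-25, above), where 8.29% of all tested miRNAs fell and 8.02% rose, and the median was -0.08. miR-18b, of the paralogue cluster on the X chromosome, had 32.6, 30.5, 20.99, 23.4 and 39.1 normalized counts in CONT and 5.26, 12.9, 10.1, 14.3 and 19.8 in REST, with a log2 fold change of -1.19 ± 0.27 (SE), adjusted p = 0.0141. All REST values lay below all CONT values, and the call remained in each fit without a cow, although the values are low. Its neighbours miR-20b and miR-363 had -0.57 and -0.48 and were lower in REST in 5 of 5 cows without passing (adjusted p = 0.0711 and 0.0976). miR-18a had -0.47 and miR-106a -0.54, with adjusted p of 0.0431 and 0.0465, and leaving out a cow ended the calls of miR-18a (adjusted p of up to 0.108 without cow 8200, 9195, 1155 or 2182) and miR-106a (adjusted p of up to 0.09 without any 1 of the 5 cows).

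In the cluster of miR-500, miR-532 and miR-660, also on the X chromosome and inside a chloride channel gene, all 7 members tested had values below 0. Their median was -0.31. Of the 7, 2 fell and 0 rose, where 8.29% of all tested miRNAs fell and 8.02% rose. miR-500 had 184.5, 170.4, 185.95, 167.02 and 162.8 in CONT and 97.3, 119.4, 132.5, 114.4 and 56.9 in REST, with a log2 fold change of -0.77 ± 0.16 (SE), adjusted p = 0.00977. The groups did not overlap, and the call remained without any single cow. miR-188 had -0.57 (adjusted p of up to 0.0743 without cow 1165, 9195, 1155 or 2182, and adjusted p = 0.104 with DESeq2 and the block). The most abundant members, miR-660 and miR-532, had -0.20 and -0.12 and did not pass.

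In the clusters of miR-193 and miR-365, 2 of 5 members tested fell and 0 rose, where 8.29% of all tested miRNAs fell and 8.02% rose. miR-193a-3p, a repressor of growth in several tumour types, had 788.02, 917.9, 926.8, 992.9 and 822.1 in CONT and 565.4, 644.8, 601.02, 625.1 and 552.6 in REST, with a log2 fold change of -0.57 ± 0.09 (SE), adjusted p = 0.00305. All REST values lay below all CONT values, and leaving out a cow gave an adjusted p of at most 0.00931. The entry miR-193a had -0.51 (adjusted p of up to 0.122 without cow 8200, 9195, 1155 or 2182) and its cluster partner miR-365-3p had -0.14 without passing.

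The scarce arm let-7a-3p had 328.9, 439.9, 302.9, 352.4 and 319.1 in CONT and 216.96, 228.03, 261.05, 134.2 and 196.6 in REST, with a log2 fold change of -0.77 ± 0.15 (SE), adjusted p = 0.00977, whereas its abundant partner let-7a-5p had 0.06 (adjusted p = 0.778). All 5 REST values of let-7a-3p were below the CONT values. miR-885 had 409.2, 789.5, 140.96, 445.1 and 540.5 in CONT and 265.6, 409.6, 147.7, 158.1 and 244.9 in REST, with a log2 fold change of -0.84 ± 0.18 (SE), adjusted p = 0.0105. It fell in 4 cows and was slightly higher in REST in cow 9195, whose CONT value was far below the others. Both calls remained without any single cow.

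The cattle-numbered miR-2898 had a log2 fold change of -0.77 ± 0.14 (SE), adjusted p = 0.00555, miR-10166-5p -0.61, miR-2483-5p -1.37 and miR-669 -0.37, all lower in REST in 5 of 5 cows. None of the 26 tested members of the ruminant miR-2284 and miR-2285 family passed (edgeR, 0 at an unadjusted p under 0.05), and their values ranged from -0.31 to 0.57. Other falls in 5 of 5 cows were miR-671 (-0.83), miR-296-5p of the imprinted GNAS locus (-0.92), miR-877, which is spliced from an intron (-0.92), miR-345-5p (-0.51), miR-326 (-0.51), miR-190a (-0.45), miR-374b (-0.38) and miR-425-3p (-0.47). miR-29d-5p (-0.57) fell in 4. Of these, miR-2898, miR-10166-5p and miR-671 passed in each fit without a cow, and the others did not, with adjusted p of up to 0.189 for miR-425-3p without cow 1155. The calls of miR-877, miR-106a, miR-425-3p and miR-193a were also absent with DESeq2 and the block.

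Of 15 predicted miRNAs tested, 3 fell and 1 rose, where 8.29% of all tested miRNAs fell and 8.02% rose. Their median was 0.33, with 10 of 15 above 0. Among the 15, chr10_11288 and chr16_17042 have identical counts and are a single measurement. chr7_8584 had 60.8, 48.3, 28.5, 60.1 and 79.8 in CONT and 21.04, 27.9, 6.07, 13.5 and 18.97 in REST, with a log2 fold change of -1.67 ± 0.23 (SE), adjusted p = 0.000708. chr10_11366 had 21.7, 30.5, 27.7, 42.6 and 34.2 in CONT and 9.20, 12.9, 21.2, 9.53 and 10.3 in REST, with a log2 fold change of -1.31 ± 0.27 (SE), adjusted p = 0.00977. Neither overlapped between the periods, and both calls remained without any single cow. chr19_20878 had -0.50 (adjusted p of up to 0.138 without cow 8200, 9195, 1155 or 2182).

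**Figure D4:**
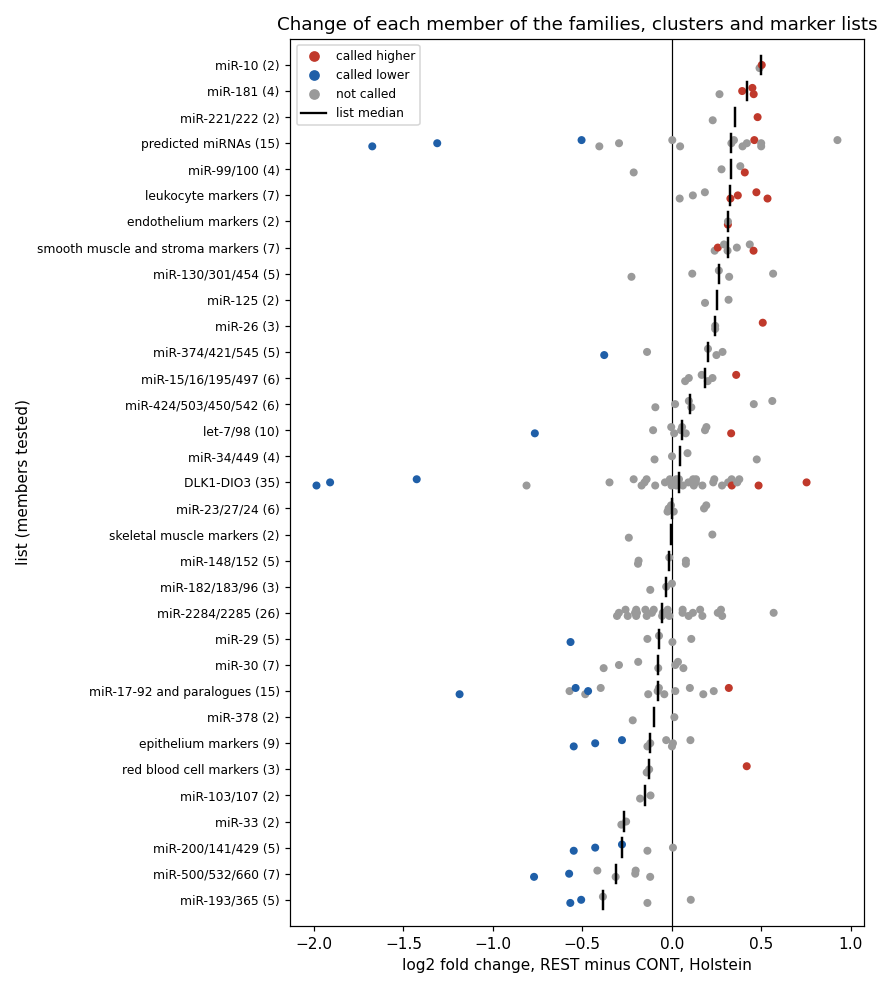
Log2 fold change of REST against CONT in HOLS (horizontal axis) for each tested member of the families, genomic clusters and marker lists (rows, with the number tested), ordered by the list median (black bar). The 4 miR-181 members and the 7 leukocyte markers lie above 0, the 7 members of the miR-500, miR-532 and miR-660 cluster lie below 0, and DLK1-DIO3 spreads from -1.99 to 0.75.

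The share of counts held by the 10 most abundant miRNAs differed between periods by less than the spread between cows. These 10 (miR-143, miR-30a-5p, miR-148a, miR-10b, miR-148d, miR-26a, miR-141, miR-26c, miR-126-5p and miR-27b) held 74.4% ± 2.20 of counts in CONT and 75.5% ± 1.99 in REST, a difference of 1.07 ± 2.29 percentage points that was positive in 3 of 5 cows (two-sided exact paired sign-flip permutation test, p = 0.375). Of the 10, miR-143 passed the test. miR-148a, known from milk and lactating epithelium, was lower in REST in 5 of 5 cows with -0.19 (95% interval -0.41 to 0.03), and miR-30a-5p had 0.03 (-0.24 to 0.31), which changed sign with the scaling. Within this set miR-148a and miR-148d, and miR-26a and miR-26c, have counts in a nearly fixed ratio.

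Counts of miRNAs that share a name stem were also summed into families, and 51 of 297 family sums (17.2%) passed, 27 higher and 24 lower in REST. Most of these hold a single miRNA. Of the 52 with several detected members 8 passed, 4 in each direction. The sums that rose were miR-146 at 0.59 ± 0.09 (SE), adjusted p = 0.00191, miR-181 at 0.45 ± 0.11 (SE), adjusted p = 0.0191, miR-10 at 0.49 ± 0.15 (SE), adjusted p = 0.0451, and miR-130 at 0.31 ± 0.10 (SE), adjusted p = 0.0482. The sums that fell were miR-18 at -0.54 ± 0.13 (SE), adjusted p = 0.0191, miR-193 at -0.40 ± 0.12 (SE), adjusted p = 0.0393, miR-200 at -0.39 ± 0.09 (SE), adjusted p = 0.0187, and miR-299. Here miR-193 leaves out miR-193a-3p, which was kept apart, and miR-200 holds miR-200a, miR-200b and miR-200c. The 2 entries of the miR-299 sum are 1 measurement, so it is no family of several members. Among these 8, only miR-130 had no member that passed alone, and its main member miR-130a had 0.32 and an adjusted p of 0.0512.

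The ratio of the 5p to the 3p arm asks whether 2 products of 1 hairpin moved apart. Of 25 hairpins with both arms counted, 0 (0%) passed an adjusted p of 0.05 in limma with the cow as a block, and 9 had an unadjusted p under 0.05. The lowest adjusted p, 0.0510, was shared by miR-193a and let-7a. The log2 ratio of miR-193a was -1.55 ± 0.28 in CONT against -0.88 ± 0.17 in REST (SD, n = 5) and that of let-7a 9.56 ± 0.43 against 10.38 ± 0.46, each higher in REST in 5 of 5 cows. The next were a lower value for the predicted hairpin chr7_7966 (-0.99 on the log2 scale) and higher values for miR-369 (0.60), miR-425 (0.49) and miR-99a (0.49), with adjusted p from 0.0601 to 0.0821, and then miR-29d (-0.65) and miR-296 (-0.72), both at 0.104. The ratio of chr7_7966 is that of its mature to its star product, as its arms are not named 5p and 3p, so its direction is not comparable with the others. With a pseudocount of 5 in place of 1, 3 hairpins passed, and among hairpins with a mean of at least 50 in both arms 4 of 19.

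The HOLS changes were set beside those of the 6 MONT cows in 1 model of both breeds. Of the 61 miRNAs called in HOLS, from 50 to 59 moved in the HOLS direction in 5 MONT cows, and 17 did in cow 9615. The changes of that cow thus ran mostly against the direction of the others. Whether its CONT and REST labels are in the right order is open to doubt and was not tested, the labels were kept, and values are given with and without it. With all 6 cows, of the 61 miRNAs called in HOLS, 59 had the same sign in MONT (96.7%), against 293 of 373 miRNAs tested in both (78.6%). In MONT 0 of 388 miRNAs (0%) passed an adjusted p of 0.05 in that edgeR model and 96 (24.7%) had an unadjusted p under 0.05, among which were 39 of the 61. The exceptions in sign were miR-126-3p (-0.13 in MONT) and miR-486 (-0.28 in MONT). Without cow 9615, 165 of 388 (42.5%) passed in MONT, 85 higher and 80 lower in REST, and 198 had an unadjusted p under 0.05. Of the 61, 48 were among the 165, all with the sign they had in HOLS. In that fit 58 of the 61 (95.1%) had the same sign in MONT, against 76.7% of all miRNAs tested in both, and miR-374b joined the exceptions. The count of 0 in MONT thus changed without cow 9615, and it was not refitted without any other MONT cow. Cow 9615 was singled out by its direction against the HOLS calls, so the shared signs without it are a description with no test.

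The difference between the breeds passed for 0 of 388 miRNAs (0%) with edgeR and for 0 with DESeq2, with 5 and 7 at an unadjusted p under 0.05. The lowest unadjusted p values belonged to 3 of the 4 deepest HOLS falls: the difference, HOLS minus MONT on the log2 scale, was -1.16 (95% interval -1.84 to -0.48, unadjusted p = 0.00282) for miR-299-2, -1.04 (95% interval -1.73 to -0.36, unadjusted p = 0.00589) for miR-299 and -0.81 (95% interval -1.40 to -0.22, unadjusted p = 0.0108) for miR-495. It was 0.39 (95% interval 0.03 to 0.74, unadjusted p = 0.0372) for miR-126-3p and -1.04 (95% interval -2.02 to -0.06, unadjusted p = 0.0397) for miR-12044, and all 5 had an adjusted p of 0.985. miR-299 and miR-495 were lower in REST in 6 of 6 MONT cows as well. Without cow 9615, 23 of 388 (5.93%) passed, 7 higher and 16 lower in HOLS than in MONT, among them 9 of the 61, and no other cow moved the count from 0. The 23 hold pairs with counts that move together, so they are fewer measurements. These pairs are miR-299 with miR-299-2, miR-199a-3p with miR-3604, miR-148a with miR-148d, and chr10_11288 with chr16_17042. In that fit the difference was -1.14 for miR-299 and -0.97 for miR-495, and it was 0.48 for miR-126-3p (adjusted p = 0.0486, 0.0426 and 0.0389 from edgeR). Also among the 9 were miR-299-2 (-1.23) and HOLS rises whose value was higher in MONT. These rises were miR-222 (-0.61), miR-31 (-0.70), miR-181d (-0.93), miR-3604 (-0.75) and chr21_21957 (-1.24), with adjusted p of at most 0.0431 from edgeR. The spread between cows beyond the model, the biological coefficient of variation, was 0.24 with cow 9615 and 0.17 without it.

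**Figure D5:**
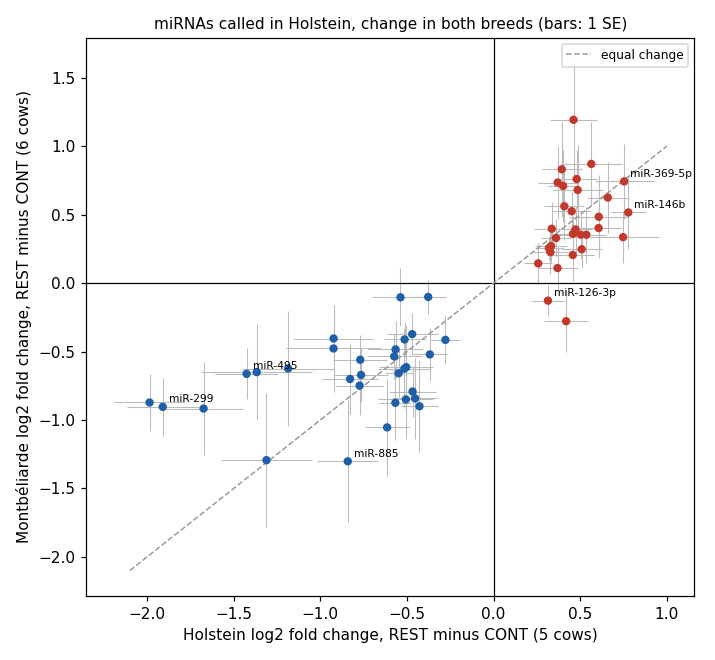
Log2 fold change of REST against CONT in 5 HOLS cows (horizontal axis) and in 6 MONT cows, cow 9615 included (vertical axis) for the 61 miRNAs called in HOLS, with bars of 1 SE and a dashed line of equal change. Of these points 59 lie in the quadrants of equal sign, miR-126-3p and miR-486 lie below 0 in MONT only, and miR-299 and miR-495 lie above the line.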

How the data were processed

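Small RNA libraries (TruSeq small RNA kit) of HOLS mammary gland biopsies were compared within cow, REST against CONT, and the MONT libraries entered the test of the breeds. The authors trimmed adapters with FASTX-Toolkit, kept reads by size, annotated them with ncPRO-seq, and aligned them to the bovine genome btau5.0.1 and miRBase with miRDeep2. The submitters' processing notes name bcl2fastq 2.17.1.14 and DESeq2 1.18.1. The deposited counts are raw reads per mature miRNA, 1 column per library. A block of 22 deposited columns of normalized values and the authors' columns of fold changes and p-values were not used. A further HOLS cow in the labels was not analysed here.

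Counts were tested with edgeR 4.0.16 (R 4.3.3): TMM scaling, filterByExpr with a minimum count of 10, the cow as a block, the quasi-likelihood F test, and p-values adjusted by Benjamini-Hochberg and called at 0.05. The breeds were compared by the breed by period term with cows nested in breeds. Arm ratios, log2 with a pseudocount of 1 on normalized counts, were tested with limma 3.58.1. Normalized counts and all values computed from them used size factors of DESeq2 1.42.0. Shares were compared with an exact paired test. Per the labels, a cow's number is shared by its CONT and REST libraries: deviations of the 2 libraries of a cow from the period means correlated with r from 0.25 to 0.54 across miRNAs, and those of different cows with at most 0.07. Deviations from a period mean cancel over its 5 cows, which in itself lowers the values between different cows. In the HOLS tests with the block, p-values rest on the spread of the change from CONT to REST between these 5 cows. Those of the breed model rest on the cows of both breeds. Totals per library ranged from 7431936 to 18149037 counts in HOLS, and reads are not independent molecules. Scripts were tested on simulated data.

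Families were formed by name because mature sequences were not analysed here. Neighbouring genes were taken from RefSeq (ARS-UCD2.0, another build, so no coordinates are given), which matched 747 of the 796 names. Members and lists were chosen with earlier results of these data known. Named miRNAs are the 12 highest and 12 lowest fold changes among calls with 1 sign in all cows, the 10 most abundant, list members past the threshold, the 5 lowest p between breeds, the 8 lowest p of families and arm ratios, and co-counted partners, and the other calls were added after their values were seen. Alternatives were no block, DESeq2, limma-voom, other scalings and filters, robust dispersions, a threshold of 0.10, other pseudocounts and each cow left out.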

Additional observations from a re-analysis of the deposited data

Results flagged for a closer look

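Over 70 named miRNAs, 140 groups of 5 libraries were looked at for a library far from the other 4, and 4 groups held one, where chance gives about 7. In REST, miR-342 had 1507 normalized counts in cow 2182, against 2431 to 2550.5 in the other cows, and this cow also had the lowest CONT value. In REST, chr21_21957 had 1903 normalized counts in cow 1155, against 784 to 1102 in the others. In REST, miR-148a had 1247254 normalized counts in cow 1165, against 1124369.6 to 1159551 in the others. In CONT, miR-669 had 816 normalized counts in cow 1155, against 642 to 680.2 in the others. Without cow 1155, miR-669 fell by 0.36 on the log2 scale with an adjusted p of 0.0928 (edgeR).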

How the results depend on the processing

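Without the replicate block 9 miRNAs passed in place of 61, without a filter 94, and at an adjusted p of 0.10 111. All 9 were among the 61, and 59 of the 61 passed without a filter. The other scalings, filters and tools gave from 66 to 75. Leaving out 1 cow gave from 26 (cow 1155 or 2182) to 56, with 33 without cow 1165 and 35 without cow 9195. Of the 61 miRNAs 18 passed in each of these 5 fits, and 16 of them also under every other setting with the block. None of the 61 changed sign in 915 refitted values. Of the family sums, 8 in place of 51 passed without the block, 94 at 0.10 and from 17 (cow 2182) to 58 without 1 cow, with 27 without cow 1155. Of the arm ratios, in place of 0, 1 passed without the block, 3 with a pseudocount of 5, 4 with a mean of at least 50, 6 at 0.10 and from 0 to 3 without 1 cow (3 without cow 1165, 2 without cow 9195). The count for the breeds was 0 in each alternative except 23 without MONT cow 9615, so leaving out 1 cow of either breed gave from 0 to 23. In MONT alone, 165 passed in place of 0 without cow 9615, a fit added after seeing the data. The gain of miR-143 in share ranged from 3.63 to 4.65 percentage points without 1 cow and that of the 10 most abundant miRNAs from 0.409 to 1.85. miR-141 (0.01) turned to -0.166 by library size only, -0.0601 by upper quartile, -0.00968 without a filter, -0.0218 with a mean of at least 10 and -0.00912 with library sizes without miR-143, and ranged from -0.130 to 0.145 without 1 cow. miR-30a-5p (0.03) turned to -0.138 by library size only and -0.0325 by upper quartile, and ranged from -0.0885 to 0.139 without 1 cow. The cause of these changes was not tested. Families by shared seed bases were not run, since mature sequences were not analysed here. Low counts limit the scarce falls, as the median standard error was 0.23 on the log2 scale for miRNAs with means under 100 normalized counts and 0.10 above 10000.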
